A study of Mus musculus with 12 samples.

Results

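Acute-phase and STAT3-induced genes were followed in the mouse terminal ileum: Lrg1, Lbp, Lcn2, Serpina10, Serpina3n, Tat, S100a8, S100a9 and Hp. These 9 members were taken by symbol from a table of 23284 genes, and all 9 were found. They were picked as acute-phase proteins and further genes, other than the Saa and Reg families, that were strongly raised in these same libraries, so the rise of the members was itself what they were selected on, and it is given as a description with no test. RNA was sequenced from the terminal ileum of 12 mice, with 1 library per mouse and 3 mice in each of 4 groups. The groups were C57BL/6 wild-type (WT) mice, Rag1-/- mice, Tcra-/- mice caged for 4 to 8 weeks together with WT mice in equal number (co-housed), and Tcra-/- mice housed separately. All mice came from Taconic through 1 contract and lived in a specific-pathogen-free facility. Both knockout alleles are present in every cell of the body, and Rag1-/- mice lack mature T and B cells while Tcra-/- mice lack alpha beta T cells. The study compared Rag1-/- with WT mice and co-housed with separately housed Tcra-/- mice. The sources used here give no ages, no number of cages per group and no housing partners for the WT and Rag1-/- mice, and the labels name males only for the WT cage mates. Since cage mates share their housing, the spread given here is one between mice and not between cages.

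The acute-phase response is a change in secreted proteins that follows infection or tissue injury. Cytokines of the IL-6 family, and IL-22 acting on epithelial cells, bind receptors that activate Janus kinases. These phosphorylate the transcription factor STAT3, which enters the nucleus and raises target genes, among them Socs3, whose product shuts the same receptors down. In the intestine, IL-22 from innate lymphoid cells and T cells is a known driver of STAT3 in the epithelium, where its targets include antimicrobial proteins. The liver is the classical source of acute-phase proteins in blood, and several of their genes are also transcribed in the gut.

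The capitals in the promoter sequences printed here mark 3 of the short motifs that were searched for: TTGCNNAA, a site for C/EBP factors, CTGGGAA, a short form of the type II acute-phase element bound by STAT3 in liver genes, and TATAAA, the TATA box. RefSeq promoter windows (build GRCm38.p6, 250 bases before to 50 bases after the start) were matched for 6 of the 9 genes: Lrg1, Lcn2, Serpina3n, Tat, S100a8 and S100a9. The 250 bases before the start of 5 of them are given 5′ to 3′ on the strand of the gene, because these are the genes with the largest changes, the adjacent S100 pair and the antimicrobial Lcn2.
Lrg1, chr17:56121947-56122196, minus strand: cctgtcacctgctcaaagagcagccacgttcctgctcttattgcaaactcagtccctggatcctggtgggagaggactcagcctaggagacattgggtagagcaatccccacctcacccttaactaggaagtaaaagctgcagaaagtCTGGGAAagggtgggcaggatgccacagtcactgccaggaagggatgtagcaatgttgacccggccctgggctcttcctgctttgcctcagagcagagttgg
Tat, chr8:109990186-109990435, plus strand: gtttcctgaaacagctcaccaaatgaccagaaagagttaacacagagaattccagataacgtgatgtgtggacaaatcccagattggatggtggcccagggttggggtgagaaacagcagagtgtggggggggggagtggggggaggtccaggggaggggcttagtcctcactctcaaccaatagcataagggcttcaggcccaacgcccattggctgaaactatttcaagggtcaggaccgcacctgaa
Lcn2, chr2:32387740-32387989, minus strand: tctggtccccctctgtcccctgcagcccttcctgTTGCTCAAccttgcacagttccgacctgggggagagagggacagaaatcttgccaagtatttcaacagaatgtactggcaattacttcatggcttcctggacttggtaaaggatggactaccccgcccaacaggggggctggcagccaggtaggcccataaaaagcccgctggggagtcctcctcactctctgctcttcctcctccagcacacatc
S100a8, chr3:90668821-90669070, plus strand: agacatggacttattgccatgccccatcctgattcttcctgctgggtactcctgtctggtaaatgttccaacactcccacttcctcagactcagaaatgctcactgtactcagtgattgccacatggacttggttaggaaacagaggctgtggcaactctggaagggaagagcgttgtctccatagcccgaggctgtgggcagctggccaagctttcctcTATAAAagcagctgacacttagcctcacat
S100a9, chr3:90695722-90695971, minus strand: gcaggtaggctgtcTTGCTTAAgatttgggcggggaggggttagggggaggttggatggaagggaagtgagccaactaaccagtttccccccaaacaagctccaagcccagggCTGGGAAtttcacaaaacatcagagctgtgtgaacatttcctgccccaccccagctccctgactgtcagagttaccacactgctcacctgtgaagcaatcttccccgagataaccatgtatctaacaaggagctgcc
CTGGGAA was found 102 bases before the start of Lrg1 and 137 bases before that of S100a9, thus in 2 of the 6 windows, and in 11.1% of the 32851 RefSeq windows of this length on either strand. TTGCNNAA stood 216 bases before the start of Lcn2 and 236 bases before that of S100a9, again in 2 of 6 windows against 10.8% of all. The S100a8 window holds TATAAA 30 bases before the start, and 2 further windows, of Lrg1 and S100a9, hold it just after the start, against 13.6% of all windows. The palindrome TTCNNNGAA, to which STAT dimers bind, was in 0 of the 6 windows and in 8.3% of all, and the kappa B consensus bound by NF-kappaB was in 0 of 6 and in 8.46% of all. These letters were not in these windows, which says nothing about sites farther away, and CTGGGAA was added to the search after the sequences had been seen.

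Library totals ran from 37061276 to 50581616 counts, and no library of a group stood apart in depth. Levels are given as CPM, the counts of a gene relative to the library size after scaling by the trimmed mean of M-values (TMM). The ileal genes Fabp6 and Slc10a2 together made up 2948 to 4295 CPM in all 12 mice. The hepatocyte list summed to 12.7 to 21.1 CPM across the 4 groups, with Mup3 at 0 reads in all of them and Alb at 0 reads in WT and co-housed mice. B cell markers summed to 1.80 to 2.30 CPM in the mice labelled Rag1-/- and to 33.8 to 143 CPM in the other 9 mice. The Rag1 gene itself had 236 reads over the 3 mice labelled Rag1-/- and 0 in the other 9. Which part of the gene was deleted is not given, so these reads do not check the genotype, and Rag1-/- denotes the mice so labelled throughout.

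A gene was called changed at a Benjamini-Hochberg adjusted p under 0.01 in edgeR's quasi-likelihood test over 15866 genes. Of all genes 20.9% were called in Rag1-/- against WT mice, 9.42% higher and 11.5% lower, and 38.8% in co-housed against separately housed Tcra-/- mice, 21.1% higher and 17.7% lower. The members carry no calls in these 2 comparisons. Their median log2 fold change was 1.77 in the first, beside -0.02 over all genes, and 3.74 in the second, beside -0.01. The 2 groups did not overlap for 6 members in the first comparison, beside 45.7% of all genes, and for 8 in the second, beside 57.9%. These 2 comparisons were taken as the ones that chose the members, so nothing is read from those counts. All 9 members passed the filter on low counts, but S100a8 would have passed it alone in only 1 group, S100a9 in 2 and Hp in 3. Scaling to library size without TMM moved the all-gene medians to -0.19 and -0.12. The split of all called genes then went from 1494 higher and 1820 lower to 713 and 3218 in the Rag1-/- comparison, and from 3347 and 2809 to 2480 and 3695 in the housing comparison. No member changed its direction in either comparison under that scaling.

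**Figure D1:**
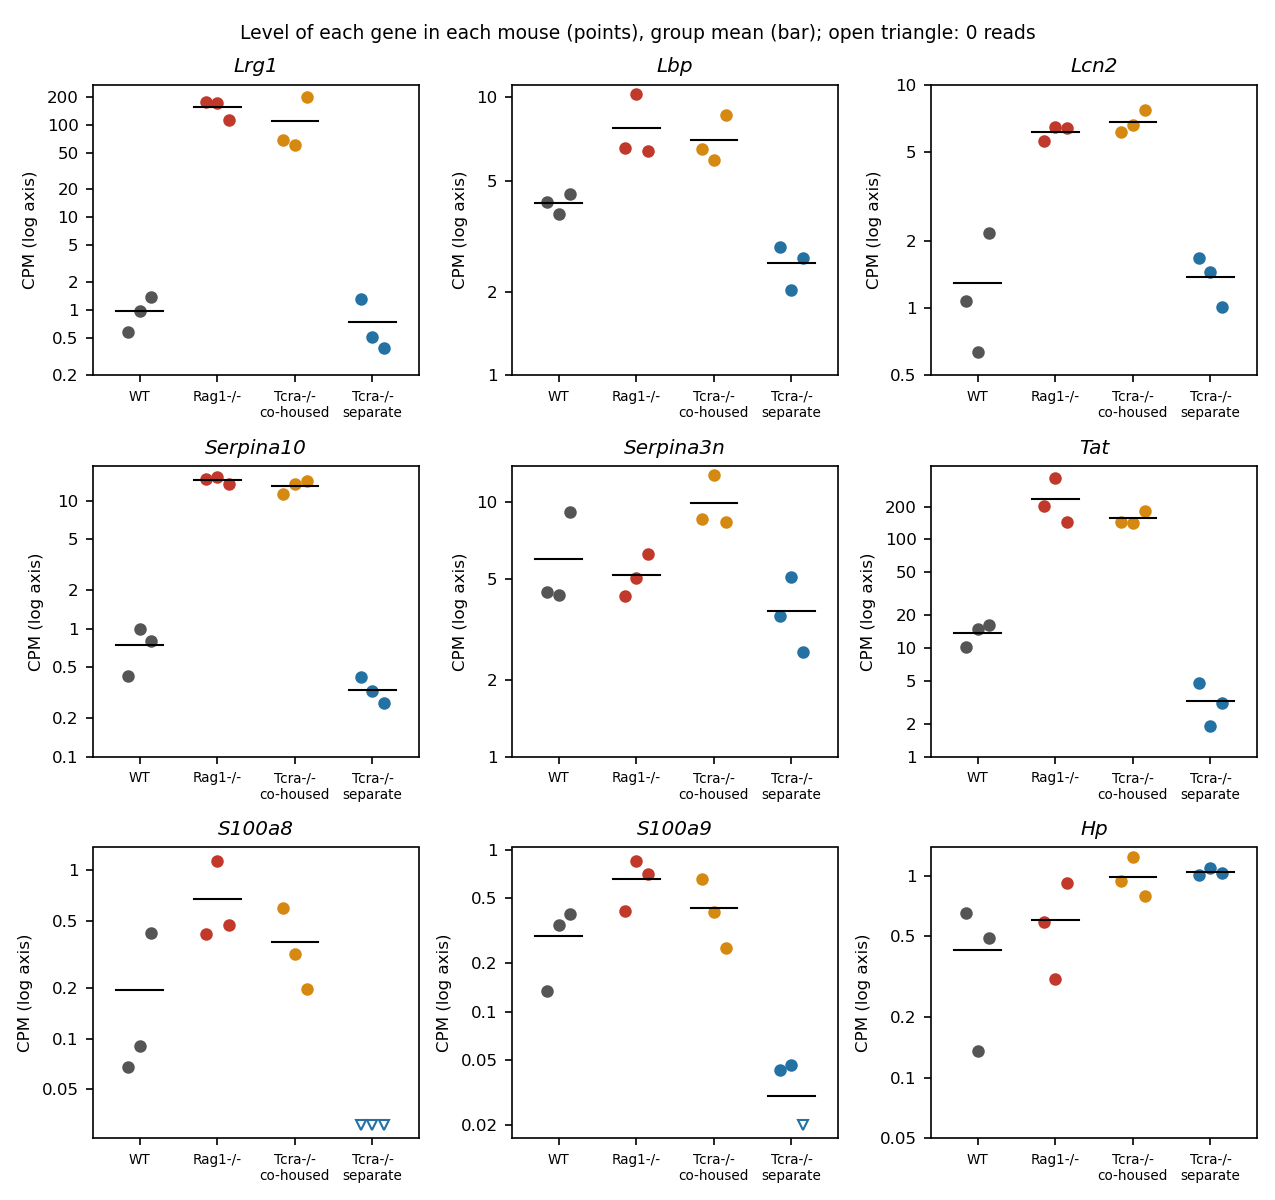
Level of each of the 9 genes in CPM on a log axis, 1 panel per gene, with 1 point per mouse and the group mean as a bar. Lrg1, Lbp, Lcn2, Serpina10 and Tat were higher in all 6 Rag1-/- and co-housed Tcra-/- mice than in all 6 WT and separately housed mice, while Hp was not.

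Lrg1 encodes leucine-rich alpha-2-glycoprotein, a secreted protein known for modifying TGF-beta signalling in blood vessels and induced by IL-6 and IL-22. The gene lies on the minus strand of chromosome 17, from 56259101 to 56261369 (build mm9), with 2 exons. Its fitted change was the largest of the members in both comparisons, although that of S100a8 is known only as a bound in the housing comparison. In WT mice Lrg1 stood at 0.585, 0.974 and 1.39 CPM. In Rag1-/- mice it stood at 175, 172 and 113 CPM. All Rag1-/- values lay far above the WT values, and the fitted difference was 7.28 ± 0.69 (log2, SE, n = 3 per group), which is 155-fold. Co-housed Tcra-/- mice had 68.1, 60.5 and 198 CPM, of which the highest, mouse TCRaCox3157, was 3.27 times the lowest. Separately housed Tcra-/- mice had 1.32, 0.513 and 0.394 CPM. The co-housed mice were higher by 7.19 ± 0.70 (log2, SE), or 146-fold, with no overlap. That value was 6.43 without TCRaCox3157 and 7.90 without TCRaSepxT2, the mouse with the highest separately housed level.

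Tat encodes tyrosine aminotransferase, the first enzyme of tyrosine breakdown, best known as a liver gene that glucocorticoids induce. It lies on chromosome 8 from 112514336 to 112523704 (mm9, plus strand, 12 exons). With 51462 reads over the 12 mice it was the member with the most reads. WT mice had 10.3, 15.05 and 16.3 CPM and Rag1-/- mice 205, 364 and 145 CPM. The Rag1-/- mice were thus all higher, by 4.10 ± 0.42 (log2, SE), or 17.1-fold. Tat was 146, 142 and 182 CPM in co-housed and 4.74, 1.91 and 3.11 CPM in separately housed Tcra-/- mice. The 2 housing groups did not overlap and differed by 5.58 ± 0.47 (log2, SE), or 48.0-fold.

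Serpina10 encodes the protein Z-dependent protease inhibitor, which blocks coagulation factor Xa. It lies on the minus strand of chromosome 12 from 104854885 to 104869615 (mm9, 5 exons). Its levels were the most even of the members within the Rag1-/- group, at 14.8, 15.3 and 13.6 CPM. WT mice had 0.427, 0.997 and 0.805 CPM, lower in all 3 mice, and the difference was 4.29 ± 0.21 (log2, SE), or 19.6-fold. After co-housing, Tcra-/- mice had 11.3, 13.5 and 14.3 CPM and separately housed mice 0.417, 0.326 and 0.262 CPM. With no overlap, the housing difference was 5.27 ± 0.24 (log2, SE), or 38.6-fold. Over the 12 mice the centred log2 profiles of Serpina10 and Tat differed by a root mean square of 0.56, and each was the member nearest to the other.

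Serpina3n, a further protease inhibitor of the alpha-1-antichymotrypsin group, lies on the same chromosome from 105644918 to 105652539 (mm9, plus strand, 5 exons). It did not follow Serpina10 in the Rag1-/- mice. WT mice had 4.43, 4.31 and 9.17 CPM and Rag1-/- mice 4.29, 5.02 and 6.25 CPM. These groups overlapped, and the fitted difference of -0.20 ± 0.32 (log2, SE; 95% interval -0.90 to 0.50) was within its error. It turned to 0.25 without WTB6x3167, the highest of the WT mice. In the housing comparison, co-housed mice had 8.54, 12.8 and 8.34 CPM and separately housed mice 3.55, 5.08 and 2.58 CPM. There the groups did not overlap, and the difference was 1.41 ± 0.32 (log2, SE), or 2.65-fold. The other 10 Serpina3 genes in the table are close paralogs, 5 of which passed the filter, and how reads matching several of them were counted is not given, so the level of Serpina3n is uncertain. Serpina3g had 1698 reads in WT, 1172 in Rag1-/-, 3260 in co-housed and 467 in separately housed mice, and Serpina3f 283, 237, 984 and 67. Both were likewise highest in the co-housed and lowest in the separately housed mice, as was Serpina3i with 21, 14, 46 and 3 reads. The remaining paralogs tested did not follow: Serpina3c, with 21, 13, 29 and 27 reads, was lowest in Rag1-/- mice. Serpina3h, with 30, 16, 22 and 15 reads, was highest in WT mice.

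Lbp, Lcn2 and Hp encode plasma proteins that bind bacterial products or the iron that bacteria need. Lbp, the lipopolysaccharide-binding protein that hands endotoxin to CD14, lies on chromosome 2 from 158132229 to 158158588 (mm9, plus strand, 15 exons). WT mice had 4.21, 3.81 and 4.49 CPM and Rag1-/- mice 6.59, 10.2 and 6.42 CPM. The Rag1-/- mice were all above WT, by 0.89 ± 0.20 (log2, SE), or 1.86-fold. Lbp was 6.48, 5.92 and 8.64 CPM in co-housed and 2.90, 2.03 and 2.65 CPM in separately housed Tcra-/- mice. This was a difference of 1.47 ± 0.21 (log2, SE), or 2.77-fold, again with no overlap.

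Lcn2, lipocalin 2, withholds iron from bacteria by binding their siderophores. It lies on the minus strand of chromosome 2 from 32240157 to 32243259 (mm9, 6 exons). WT mice had 1.08, 0.635 and 2.17 CPM and Rag1-/- mice 5.56, 6.42 and 6.36 CPM. All Rag1-/- mice were higher, by 2.24 ± 0.31 (log2, SE), or 4.71-fold, and by 2.83 without mouse WTB6x3167, the highest of the WT mice. Lcn2 was at 6.11, 6.58 and 7.72 CPM in co-housed and at 1.67, 1.44 and 1.01 CPM in separately housed Tcra-/- mice. The difference of 2.31 ± 0.30 (log2, SE), or 4.96-fold, was close in size to that between Rag1-/- and WT mice.

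Hp, haptoglobin, which captures free haemoglobin and is among the most abundant acute-phase proteins of blood, did not share the pattern. It lies on the minus strand of chromosome 8 from 112099028 to 112103072 (mm9, 5 exons). The WT mice had 0.652, 0.136 and 0.492 CPM and the Rag1-/- mice 0.588, 0.308 and 0.918 CPM. These groups overlapped, with a difference of 0.51 ± 0.46 (log2, SE; 95% interval -0.46 to 1.48). In co-housed Tcra-/- mice Hp was at 0.943, 1.23 and 0.792 CPM, and in separately housed mice at 1.01, 1.09 and 1.03 CPM. The separately housed values lay within the co-housed range, and the difference was -0.07 ± 0.41 (log2, SE; 95% interval -0.94 to 0.79), which turned to 0.07 without TCRaCox3157. Both intervals include 0, and Hp had 396 reads in all 12 libraries, with 29, 6 and 22 in the WT mice.

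S100a8 and S100a9 encode the subunits of calprotectin, a protein that binds zinc and manganese and is abundant in neutrophils. The genes lie 23562 bases apart by start on chromosome 3, S100a8 from 90472993 to 90473956 on the plus strand and S100a9 from 90496555 to 90499613 on the minus strand (mm9, 3 exons each), with 0 genes of the table between them. Both were rare: S100a8 had 156 reads and S100a9 180 reads in all 12 mice.

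In WT mice S100a8 had 3, 4 and 19 reads (0.0675, 0.0906 and 0.425 CPM), and in Rag1-/- mice 17, 48 and 22 reads (0.416, 1.14 and 0.470 CPM). The highest WT mouse, WTB6x3167, lay just above the lowest Rag1-/- mouse, so the groups overlapped. The difference was 1.77 ± 0.66 (log2, SE), and it was 3.04 without WTB6x3167 and 1.18 without RAG1x3164, the highest Rag1-/- mouse. Co-housed Tcra-/- mice had 21, 14 and 8 reads (0.600, 0.320 and 0.198 CPM), and separately housed mice had 0 reads in all 3. Against a floor of 3 reads over the separately housed group, S100a8 was 16.1-fold higher in the co-housed mice, with their 43 reads taken as exact.

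For S100a9, WT mice had 6, 15 and 18 reads (0.135, 0.340 and 0.402 CPM) and Rag1-/- mice 17, 36 and 33 reads (0.416, 0.853 and 0.704 CPM). The groups did not overlap, by a narrow margin, and the difference was 1.16 ± 0.48 (log2, SE), or 2.24-fold. The co-housed group had 23, 18 and 10 reads (0.657, 0.412 and 0.248 CPM) and separately housed mice 2, 2 and 0. The housing difference was 3.74 ± 0.73 (log2, SE), or 13.3-fold, with no overlap. With a root mean square difference of 0.52 between their centred log2 profiles, S100a8 and S100a9 were the closest pair of members.

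**Figure D2:**
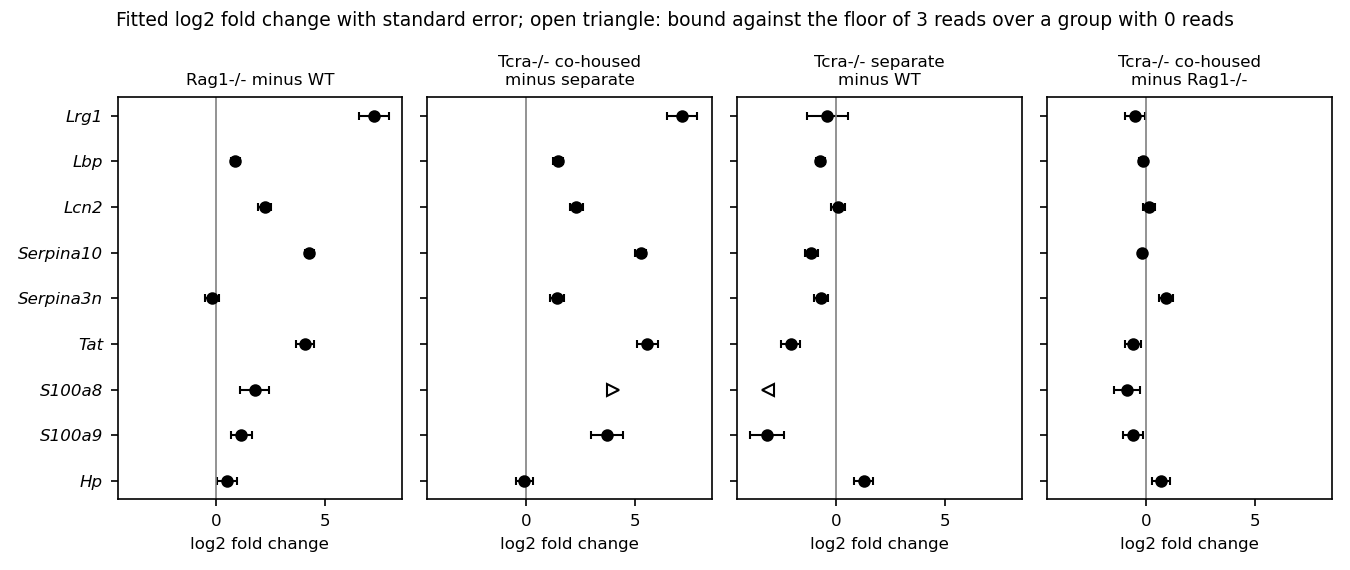
Fitted log2 fold change of each gene (point) with its standard error (bar) in the 4 comparisons; open triangles give the bound for S100a8, which had 0 reads in separately housed mice. The 2 left panels are the study's comparisons, in which Lrg1, Tat and Serpina10 reached 4.10 or more, and the right panel, between the 2 groups with high levels, stays between -0.87 and 0.93.

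Per kilobase of exon, which allows levels to be set side by side between genes, Tat ranked first in WT mice at 5.83 ± 1.34 CPM per kb (SD, n = 3), followed by Serpina3n at 2.86 ± 1.33. In the Rag1-/- mice Lrg1 and Tat led, at 113 ± 25.9 and 100.1 ± 47.8 CPM per kb, and did not differ beyond their spread. Next came Serpina10 at 9.29 ± 0.56 CPM per kb, far below both, then Lcn2 at 7.17 ± 0.56. The same 4 genes held the same places in co-housed Tcra-/- mice, with Lrg1 at 80.4 ± 57.0, Tat at 65.9 ± 9.28, Serpina10 at 8.31 ± 0.99 and Lcn2 at 7.98 ± 0.97 CPM per kb. Neither Lrg1 and Tat nor Serpina10 and Lcn2 differed there beyond their spread. In separately housed mice the order was led by Serpina3n at 1.79 ± 0.60, Lcn2 at 1.61 ± 0.39 and Tat at 1.37 ± 0.60 CPM per kb, which overlap within their spread. Lrg1 was sixth there, at 0.55 ± 0.37 CPM per kb. Hp was ninth of 9 in the WT, Rag1-/- and co-housed groups, at 0.32 to 0.74 CPM per kb.

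The 2 remaining comparisons were not stated by the study. The rule that picked the members names no comparison, so tests of members here are not free of that choice. They also use the same mice, so they are not independent of those above. Genes picked as high in both Rag1-/- and co-housed mice would tend to differ little between these 2 groups. Separately housed Tcra-/- mice were first set against WT mice, a comparison with calls for 13.8% of all genes, 6.06% higher and 7.7% lower. Among the members 2 of 9, Tat and S100a9, were called lower by edgeR's test and 0 higher. DESeq2 called 5 lower, these plus Serpina10, Lbp and S100a8, and 0 higher, and 1 member, Hp, was higher at an unadjusted p under 0.05. The median over the members was -0.72 (log2), also with S100a8 at its bound, beside 0.005 over all genes. The groups did not overlap for 6 members, beside 40.7% of all genes.

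Tat was lower in the separately housed mice by -2.09 ± 0.44 (log2, SE), a level 4.25-fold lower, with an edgeR adjusted p of 0.00986. All 3 separately housed mice were below all 3 WT mice, but the call was narrow: it ended when any 1 of the 6 mice was left out, with adjusted p from 0.0119 to 0.0435. S100a9 was lower by -3.17 ± 0.77 (log2, SE; edgeR adjusted p = 0.00659), also in 3 of 3 mice. That call ended without any 1 of the mice WTB6x3160, WTB6x3167, TCRaSepxT2, TCRaSepxT3 or TCRaSepxT4, with adjusted p from 0.0163 to 0.0349. S100a8 had 0 reads in the separately housed mice, and WT mice were 8.73-fold above the same floor, with their 26 reads taken as exact. The edgeR adjusted p of S100a8 was 0.0171, and 0.0652 without WTB6x3167, which held 19 of the 26 WT reads. S100a9 reached the filter in all 3 mice of a group only in Rag1-/- and co-housed mice, and S100a8 only in Rag1-/- mice. Both were thus tested here only through groups outside this comparison, and no support is drawn from their p or calls. With the 6 compared libraries only, neither gene was tested.

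Serpina10 and Lbp were also below WT in all 3 separately housed mice without being called. Serpina10 differed by -1.14 ± 0.30 (log2, SE; edgeR adjusted p = 0.0103), and the adjusted p was 0.00105 without WTB6x3159. Lbp differed by -0.72 ± 0.21 (log2, SE; edgeR adjusted p = 0.0201). Hp went the other way, at 1.28 ± 0.44 (log2, SE; edgeR adjusted p = 0.0434), and all 3 separately housed mice were above all 3 WT mice. Adipocytes also transcribe Hp, and the summed level of 6 adipocyte markers was 35.6 to 43.7 CPM in WT, 13.0 to 25.7 in Rag1-/-, 18.1 to 25.4 in co-housed and 60.5 to 79.0 in separately housed mice. All 6 had reads in every group, and 1 of the 5 tested, Cfd, was called higher in separately housed than in WT mice. The part of adipocytes in the level of Hp was not tested. Lrg1, Lcn2 and Serpina3n overlapped between these groups. Lrg1 differed by -0.40 (95% interval -2.56 to 1.76), Lcn2 by 0.08 (-0.62 to 0.79) and Serpina3n by -0.68 (-1.39 to 0.04) on the log2 scale. Lcn2 turned to between -0.24 and -0.03 without WTB6x3159, WTB6x3160 or TCRaSepxT2, and rose to 0.67 without WTB6x3167.

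Co-housed Tcra-/- mice were then set against Rag1-/- mice, the 2 groups in which most members were high. The share of all genes called was 2.89%, with 2.55% higher and 0.34% lower. Among the members 0 of 9 were called in either direction by edgeR's quasi-likelihood test or by DESeq2. In edgeR's test 1 member, Serpina3n, had an unadjusted p under 0.05. All 3 co-housed mice were above all 3 Rag1-/- mice for Serpina3n, by 0.93 ± 0.32 (log2, SE; edgeR adjusted p = 0.130). It was the 1 member of 9 whose groups did not overlap, beside 22.7% of all genes. For Lcn2 the difference was 0.16 (95% interval -0.43 to 0.74), for Serpina10 -0.16 (-0.51 to 0.20) and for Lbp -0.14 (-0.56 to 0.27) on the log2 scale. These were the narrowest intervals among the members. The intervals of Lrg1 (-0.49, from -1.57 to 0.58), Tat (-0.60, from -1.43 to 0.23), S100a8 (-0.87, from -2.20 to 0.46), S100a9 (-0.60, from -1.60 to 0.39) and Hp (0.70, from -0.21 to 1.61) were wider. For Lrg1 the value was -1.25 without TCRaCox3157 (edgeR adjusted p = 0.0545), for S100a8 it was -0.27 without RAG1x3164, and for Lbp it turned to 0.11 without RAG1x3164.

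To place the members in their pathway, 101 further genes of IL-6 family, STAT3 and acute-phase signalling were followed by role, and 85 of them passed the filter. In Rag1-/- against WT mice 9 of the 85 were called higher and 11 lower, beside 9.42% and 11.5% of all genes. In the housing comparison 29 were called higher and 15 lower, beside 21.1% and 17.7% of all genes. The median over the list was -0.02 and 0.29 (log2), beside -0.02 and -0.01 over all genes. Library size without TMM gave 5 higher and 18 lower in the Rag1-/- comparison, and DESeq2 gave 14 and 14.

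Of the ligands, 11 of 14 passed the filter, and 2 were called higher in Rag1-/- mice, Il22 and Tnf. Il22, the cytokine of innate lymphoid cells and T cells that acts on epithelium, had 13 reads over the WT mice, 214 over Rag1-/-, 243 over co-housed and 0 over separately housed Tcra-/- mice. It was higher in Rag1-/- mice by 4.05 ± 0.43 (log2, SE; edgeR adjusted p = 6.78e-06). Co-housed mice were 91.2-fold above a floor of 3 reads over the separately housed mice (edgeR adjusted p = 1.82e-07). Il22 passed the filter only through the Rag1-/- and co-housed mice, in which it was high. No support is therefore drawn from its p or its call in either comparison. Il6 had 4, 17, 17 and 3 reads in the same order of groups and was too rare to be tested. Tnf, a macrophage and lymphocyte cytokine, was higher by 1.49 ± 0.23 in Rag1-/- and by 2.79 ± 0.26 in co-housed mice (log2, SE). The inflammatory cytokine Il1b was called in the housing comparison, at 1.76 ± 0.33 (log2, SE). In the Rag1-/- comparison Il1b differed by -0.07 ± 0.31. Osm, of the IL-6 family, was also called in the housing comparison, at 2.50 ± 0.69 (log2, SE), on 42 against 8 reads. Its call ended without any 1 of TCRaCox3155, TCRaCox3156 or the 3 separately housed mice. Osm reached the filter in all 3 mice of a group only in co-housed mice, so no support is drawn from its call. Clcf1, also of the IL-6 family, was lower in Rag1-/- mice by -2.22 ± 0.24 (log2, SE), with 48 reads against 230 in WT.

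Among 12 receptors, 2 were called higher and 1 lower in Rag1-/- mice, and 5 higher and 2 lower in co-housed mice. Il6st, the gp130 subunit that IL-6 family receptors share, was higher by 0.36 ± 0.09 in Rag1-/- (edgeR adjusted p = 0.00742) and 0.45 ± 0.09 in co-housed mice (log2, SE). The first of these calls ended without any 1 of WTB6x3159, WTB6x3160, RAG1x3163 or RAG1x3164, and with library size in place of TMM. It also ended with the 6 compared libraries only (edgeR adjusted p = 0.0132). Il22ra1, the IL-22 receptor chain of epithelial cells, went the opposite way to its ligand, at -0.78 ± 0.11 in Rag1-/- and -1.03 ± 0.11 in co-housed mice (log2, SE). Il10ra, Csf3r and Osmr, receptor chains for IL-10, G-CSF and oncostatin M, were called higher in the housing comparison, by 1.398 ± 0.18, 1.31 ± 0.27 and 0.88 ± 0.17 (log2, SE). The TNF receptor Tnfrsf1a was called in Rag1-/- mice, at 0.40 ± 0.09 (log2, SE), but not without RAG1x3164 or with library size in place of TMM.

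Of 17 signal transducers and transcription factors, 1 was called higher and 2 lower in Rag1-/- mice, and 5 higher and 3 lower in co-housed mice. Stat3 stood at 177 ± 9.72 CPM in WT, 218 ± 20.2 in Rag1-/-, 224 ± 13.4 in co-housed and 153 ± 17.6 in separately housed mice (SD, n = 3). Its difference was 0.30 ± 0.09 (log2, SE; edgeR adjusted p = 0.0164, not called) and 0.55 ± 0.09 (edgeR adjusted p = 9.03e-05). In the Rag1-/- comparison Stat3 was called by DESeq2 (DESeq2 adjusted p = 0.00717). It was also called there with the 6 compared libraries only (edgeR adjusted p = 0.00786). Cebpd, a C/EBP factor of the acute phase, was higher by 1.26 ± 0.28 in Rag1-/- mice (edgeR adjusted p = 0.00687) and by 2.40 ± 0.30 in co-housed mice (log2, SE). The first of these calls ended without any 1 of the 3 WT mice or RAG1x3163, and with library size in place of TMM. It also ended with no filter on low counts (edgeR adjusted p = 0.0124) and with the 6 compared libraries only (edgeR adjusted p = 0.0614). The NF-kappaB cofactor Nfkbiz was higher in co-housed mice by 1.43 ± 0.17 and Cebpb by 1.00 ± 0.18 (log2, SE). Stat5b was lower in Rag1-/- mice by -0.54 ± 0.10, as was the endodermal factor Foxa2 by -0.81 ± 0.20 (log2, SE), a call that ended without any 1 of WTB6x3159, WTB6x3160 or the 3 Rag1-/- mice.

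Among 13 inhibitors, 2 were called higher and 3 lower in Rag1-/- mice, and 6 higher and 2 lower in co-housed mice. Socs3, the feedback inhibitor that STAT3 induces, stood at 43.9 ± 11.9 CPM in WT, 343 ± 118 in Rag1-/-, 273 ± 15.3 in co-housed and 26.6 ± 6.56 in separately housed mice (SD, n = 3). It was higher by 2.96 ± 0.31 in Rag1-/- mice (edgeR adjusted p = 8.68e-05) and by 3.36 ± 0.31 in co-housed mice (log2, SE; edgeR adjusted p = 2.12e-05). The groups did not overlap in either comparison, as for Lrg1, Lbp, Lcn2, Serpina10, Tat and S100a9, beside 45.7% and 57.9% of all genes. The related Socs1 and the kappa B regulator Bcl3 were called in the housing comparison, at 3.48 ± 0.38 and 1.05 ± 0.15 (log2, SE). In the Rag1-/- comparison they stood just short of a call, at 1.33 ± 0.33 (edgeR adjusted p = 0.0107) and 0.58 ± 0.15 (0.0103), and DESeq2 called both. Pias3, which binds STAT3, was lower in both, by -0.50 ± 0.09 and -0.73 ± 0.09 (log2, SE). Il22ra2, the soluble decoy receptor for IL-22, was lower in Rag1-/- mice by -1.11 ± 0.23 (log2, SE), a call that ended without RAG1x3168. The phosphatase Ptpn6, abundant in blood cells, was lower there by -1.11 ± 0.09 (log2, SE).

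Of 38 other acute-phase proteins 27 passed the filter. In Rag1-/- mice 2 were called higher, Cfi and Cd14, and 4 lower, and in co-housed mice 9 were called higher and 4 lower. Cfi, complement factor I, was higher by 3.48 ± 0.34 and 4.46 ± 0.38 (log2, SE), and by the likeness measure used here it was the non-member gene nearest to Tat. Mbl2, mannose-binding lectin, was lower in both, by -5.35 ± 0.42 and -4.28 ± 0.59 (log2, SE). The alpha-1-antitrypsin gene Serpina1b, which lies between Serpina10 and Serpina3n, was lower in both as well, by -2.40 ± 0.24 and -2.69 ± 0.23 (log2, SE). A2m, alpha-2-macroglobulin, was lower in Rag1-/- mice by -4.60 ± 0.90, with 2 reads against 59, and higher in co-housed mice by 2.95 ± 0.64 (log2, SE), with 84 reads against 12. The IL-18 antagonist Il18bp was higher in co-housed mice by 4.41 ± 0.27, as was the iron hormone Hamp by 2.97 ± 0.81 (log2, SE) on 37 against 5 reads. The call of Hamp ended without any 1 of TCRaCox3155, TCRaCox3157, TCRaSepxT3 or TCRaSepxT4. Hamp reached the filter in all 3 mice of a group only in co-housed mice, A2m only in WT mice and Mbl2 only in WT and separately housed mice. No support is drawn from the calls of Hamp, A2m and Mbl2.

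Genes that fall in an acute-phase response of the liver were 7, of which 5 passed the filter. In Rag1-/- mice 0 of the 5 were called by edgeR's test, 3 were lower at an unadjusted p under 0.05, and DESeq2 called 1, Apoa1. In co-housed mice 3 were called lower: Apoa4 by -1.52 ± 0.23, Apoa1 by -1.26 ± 0.17 and Ttr, transthyretin, by -1.18 ± 0.25 (log2, SE).

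**Figure D3:**
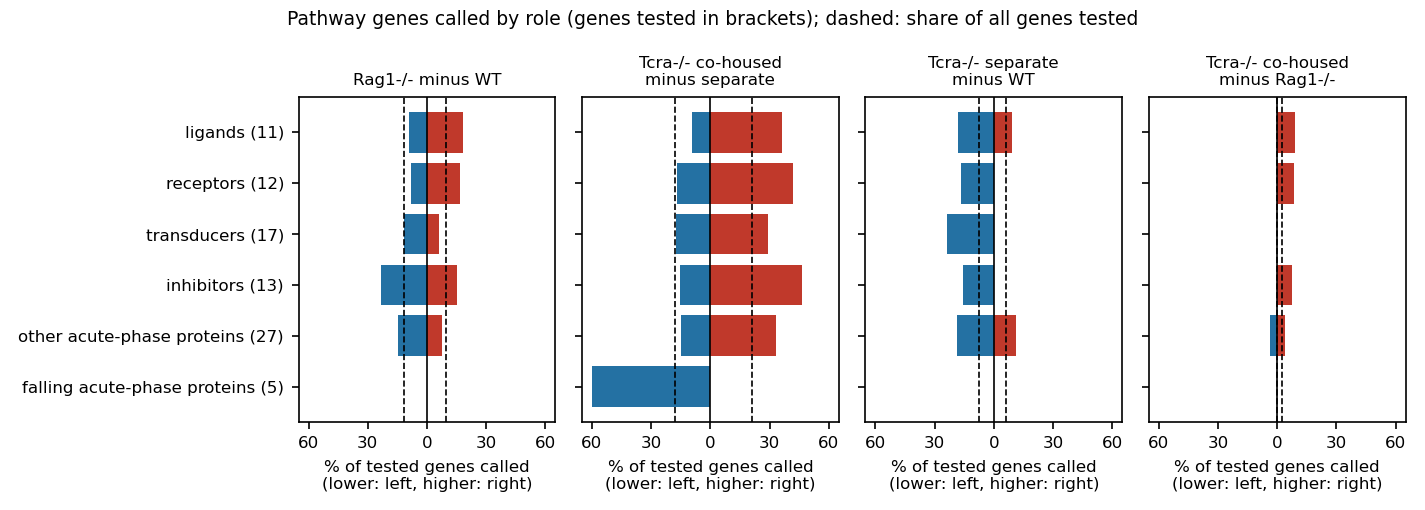
Share of the tested pathway genes of each role called lower (left of 0) and higher (right of 0) in the 4 comparisons, with the number tested in brackets and the shares of all 15866 genes as dashed lines. In the Rag1-/- comparison most bars end near the dashed lines, and in the housing comparison the inhibitors (6 of 13 higher) reach farthest to the right.

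In separately housed Tcra-/- against WT mice 4 of the 85 pathway genes were called higher and 15 lower, beside 6.06% and 7.7% of all genes. These counts were 2 and 9 without WTB6x3167 or TCRaSepxT4, and 2 and 10 without TCRaSepxT3. Il22 was among those lower, with 0 against 13 reads, so that WT mice were 4.36-fold above the floor of 3 reads. Its edgeR adjusted p was 0.00945, and 0.0137 to 0.0327 when any 1 of the 6 mice was left out. Il22 passed the filter only through Rag1-/- and co-housed mice, so no support is drawn from this call. Tnf was lower by -1.59 ± 0.27, Nfkbiz by -1.60 ± 0.17, Socs1 by -2.07 ± 0.38 and Cebpd by -1.38 ± 0.30 (log2, SE). Among the genes called higher, Clcf1 differed by 1.54 ± 0.19 (log2, SE; edgeR adjusted p = 3.33e-05). Serpina1b, also called higher, stood at 28.1 ± 1.66 CPM against 14.1 ± 3.57 in WT mice (SD, n = 3). The call of Cebpd ended when any 1 of the 6 mice was left out, and with no filter on low counts. That of Socs1 ended without any 1 of WTB6x3160, WTB6x3167, TCRaSepxT3 or TCRaSepxT4. Socs3 differed by -0.72 ± 0.29 (log2, SE; edgeR adjusted p = 0.111) and was not called. Between co-housed and Rag1-/- mice 4 pathway genes were called higher, Clcf1, Il10ra, Ptpn6 and A2m, and 1 lower, Pigr, the polymeric immunoglobulin receptor, which was named after its values were seen, beside 2.55% and 0.34% of all genes. DESeq2 called 7 higher and 2 lower there. Socs3 differed by -0.33 ± 0.28 and Il22 by 0.29 ± 0.31 (log2, SE) and neither was called, as no member was.

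Since S100a8, S100a9 and Lcn2 are also neutrophil genes, a list of 15 further neutrophil genes was summed in each mouse. In bulk tissue, fewer cells of a type and less RNA per cell cannot be told apart. The sum was 12.8 to 15.2 CPM in WT, 21.1 to 24.5 in Rag1-/-, 24.7 to 28.4 in co-housed and 8.25 to 10.4 in separately housed mice. It was lowest in the separately housed mice, and higher in Rag1-/- and co-housed than in WT mice, as were the means of S100a8 and S100a9. Lcn2 was not lowest there, with a mean of 1.37 CPM against 1.29 in WT mice. Both S100 means were higher in Rag1-/- than in co-housed mice, whereas the mean of the sum was 22.9 CPM in Rag1-/- and 26.3 in co-housed mice. Ltf, lactoferrin, made up most of the difference between Rag1-/- and WT mice. Its level was 1.15 to 2.26 CPM in WT, 7.81 to 9.08 in Rag1-/-, 5.48 to 8.52 in co-housed and 0.163 to 0.263 in separately housed mice. The sum without Ltf, computed after its part in the list had been seen, was 11.7 to 13.4, 12.5 to 15.4, 16.2 to 20.6 and 8.05 to 10.2 CPM in the same order of groups. Without Ltf the WT and Rag1-/- ranges overlapped, while co-housed mice stayed above separately housed mice.

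Of the 9 neutrophil genes that passed the filter, 1 was called higher in Rag1-/- mice (Ltf), 5 in co-housed mice (Ltf, Retnlg, Mmp9, Csf3r and Clec4d) and 3 were lower in separately housed than in WT mice (Ltf, Csf3r and Clec4d). Beside these stand 9.42%, 21.1% and 7.7% of all genes. The granule genes differed widely in reads. Elane and the receptor gene Cxcr1 had 0 reads in all 12 mice, and in WT, Rag1-/-, co-housed and separately housed mice Mpo had 1, 0, 1 and 2 reads, Ngp 0, 0, 2 and 0, Camp 2, 6, 5 and 13 and Mmp8 7, 8, 10 and 0. Ltf had 230, 1106, 878 and 29 reads and Mmp9 690, 1033, 1124 and 454 in the same order. For Csf3r these were 270, 178, 276 and 124, for Cxcr2 275, 248, 309 and 272 and for Il1r2 303, 205, 330 and 229. Fpr1 had 41, 28, 48 and 19, Clec4d 40, 26, 67 and 6, Trem1 30, 30, 34 and 46 and Retnlg 30, 96, 56 and 14. Over the 9 genes tested the median was -0.11 (log2) in the Rag1-/- comparison and 1.48 in the housing comparison. It was -1.09 in separately housed against WT mice. Of 9 monocyte and macrophage genes, 1 was called higher in Rag1-/- mice (Cd14), 7 were higher in co-housed mice and 5 lower in separately housed than in WT mice, beside the same shares of all genes. Their sum was 205 to 246 CPM in WT, 173 to 194 in Rag1-/-, 218 to 344 in co-housed and 112 to 144 in separately housed mice. T cell markers summed to 55.6 to 87.8, 6.07 to 8.24, 21.3 to 46.6 and 9.41 to 9.85 CPM in the same order. Csf3r and Cd14 also stand in the pathway list. The part of these cells in the levels of the members was not tested.

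**Figure D4:**
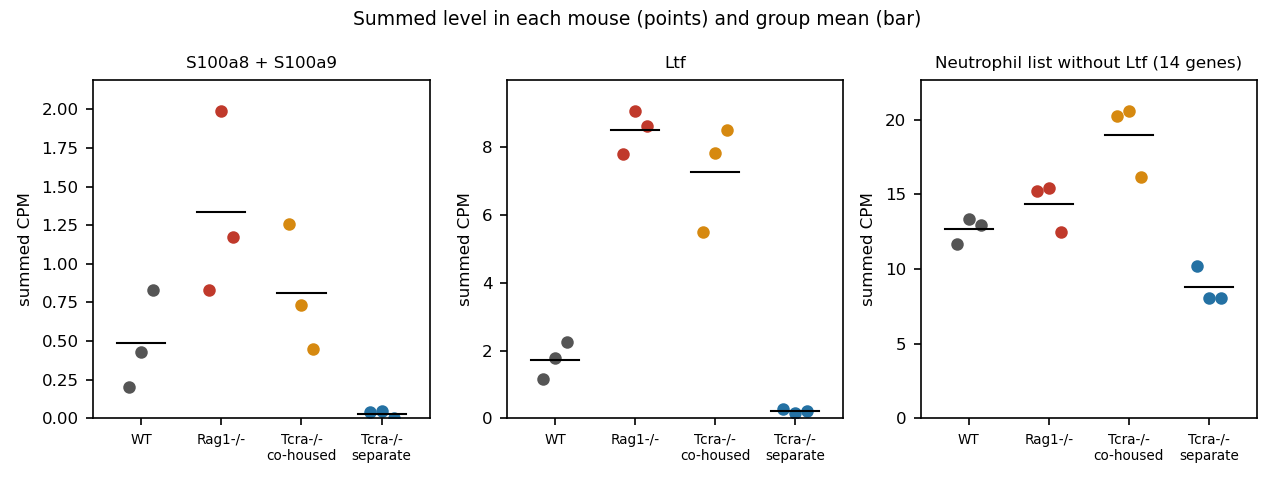
Summed CPM of S100a8 and S100a9 (left), CPM of Ltf (middle) and summed CPM of the other 14 neutrophil genes (right), with 1 point per mouse and the group mean as a bar. All 3 panels are lowest in the separately housed mice, and the right panel shows WT and Rag1-/- mice overlapping.

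The profile of the members over the 12 mice, as the mean of their centred log2 CPM values, was compared with that of 12243 other genes. The 5 genes nearest to it by root mean square difference were Wtip (0.19), Muc4 (0.22), Gna14 (0.23), Thpo (0.25) and Car4 (0.27). Muc4, a membrane mucin, stood at 34.3 ± 6.85 CPM in WT, 155 ± 7.28 in Rag1-/-, 133 ± 17.2 in co-housed and 14.3 ± 1.53 in separately housed mice (SD, n = 3). Car4, a carbonic anhydrase of the enterocyte surface, stood at 100.5 ± 27.2, 603 ± 47.3, 516 ± 128 and 74.6 ± 11.03 CPM in the same order. Of these 5 genes 3 were also among the nearest 5 with a prior count of 0.5 in the log.

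For single members, the nearest non-member gene to Lrg1 was Fut2 (0.57), the fucosyltransferase that adds fucose to epithelial glycans. Fut2 was at 6.62 ± 2.31 CPM in WT, 482 ± 116 in Rag1-/-, 336 ± 121 in co-housed and 2.62 ± 0.84 in separately housed mice (SD, n = 3). Nearest to Serpina10 was B3gnt7 (0.58), to Lcn2 the water channel gene Aqp4 (0.34), to Lbp Eif2s2 (0.18), to Serpina3n the Fc receptor gene Fcgr3 (0.27), to S100a8 the hexokinase gene Hk2 (0.63), to S100a9 the interferon-induced Ifit1 (0.48) and to Hp the complement gene C7 (0.47). These likenesses describe 12 mice in 4 groups and carry no test.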

How the data were processed

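mRNA of the terminal ileum of 12 mice was sequenced after Trizol extraction and stranded Illumina library preparation, per the labels' protocols. Per the submitters' processing notes, bcl2fastq, TopHat2 2.0.11, Bowtie2 2.2.2.0, featureCounts of Subread 1.4.5-p1 and DESeq2 1.12.3 were used with build mm9. These sources give no annotation, strand setting or handling of multiply mapped reads. The authors deposited 1 table of raw counts per gene, per the file headers, which also give exon coordinates and a gene length in bases that was used for CPM per kb.

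edgeR 4.0.16 (R 4.3.3) was run on these counts: filterByExpr over the 4 groups, TMM factors (0.926 to 1.07), 1 term per group, robust quasi-likelihood fit of all 12 libraries (8 residual degrees of freedom), two-sided tests and Benjamini-Hochberg adjustment over 15866 genes, with calls at 0.01, as in the submitters' design. The SE is the log2 fold change divided by the square root of F, and 95% intervals use the t quantile of the fit. Genes with 0 reads in a group are given as bounds against 3 reads over that group. These cover the counting error of that group only, and the reads of the other group are taken as exact. Libraries of 37061276 to 50581616 counts set the precision of rare genes. Replicates are separate mice, and the labels pair none.

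The members and all lists were chosen with earlier results of these data known. Named pathway genes are, per role, the up to 4 called genes with the largest change in each of the study's 2 comparisons, plus Il6, Il22, Il6st, Stat3 and Socs3, and the members. Members carry no p in those 2 comparisons. Alternatives were DESeq2 1.42.0 and its size factors, library size only, other filters, the 6 compared libraries only and leaving out each mouse. Lists of other cell types (epithelium, goblet and Paneth cells, endothelium, adipocytes, glia, fibroblasts, pancreas and colon) were also summed. Of the 9 epithelial genes 2 were called lower in Rag1-/- and 3 in co-housed mice. Of the 6 goblet cell genes 1 was called lower in Rag1-/- mice, and 2 higher and 2 lower in co-housed mice. Of the 5 adipocyte genes tested 1 was called lower in both comparisons, of the 3 colon genes 1 in co-housed mice, and of the 6 hepatocyte genes 1 in each, Apoh and Cyp2e1. For the Paneth cell, endothelial, glial and fibroblast lists edgeR and DESeq2 called 0 genes in these 2 comparisons, and 5 gene values had an unadjusted edgeR p under 0.05, all in co-housed mice. The pancreas list was too rare to test, with a sum of at most 0.134 CPM. Of the genes the naming rule gives, 1 is counted in its group but not reported here by name.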

Additional observations from a re-analysis of the deposited data

How the results depend on the processing

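Of the 421 values of the members under the alternatives, 415 kept their direction and 6 turned, while 12 lost a call and 6 gained one in the 2 comparisons with tests. All 6 that turned came from leaving out 1 mouse: Serpina3n in Rag1-/- against WT mice went from -0.20 to 0.25 (log2) without WTB6x3167, Hp in the housing comparison from -0.07 to 0.07 without TCRaCox3157, Lcn2 in separately housed against WT mice ran from -0.24 to 0.67 (log2) when each mouse was left out, below 0 without WTB6x3159, WTB6x3160 or TCRaSepxT2, and Lbp in co-housed against Rag1-/- mice ran from -0.32 to 0.11, above 0 without RAG1x3164. The calls lost were those of Tat and S100a9 in separately housed against WT mice; Tat also missed the threshold with no filter on low counts (edgeR adjusted p = 0.0126). Those gained were in that comparison too: Serpina10 with DESeq2's size factors, with no filter, with DESeq2 and without WTB6x3159, and Lbp and S100a8 with DESeq2. Leaving out each mouse gave 1281 (without TCRaSepxT4) to 1735 genes called in that comparison in place of 2182, and 11 to 16 pathway genes in place of 19, with 11 or 12 without WTB6x3167, TCRaSepxT3 or TCRaSepxT4. Between co-housed and Rag1-/- mice, DESeq2 called 849 genes (600 higher, 249 lower) in place of 459 (405 and 54), the 6 libraries alone 281, and leaving out each mouse 297 to 569, with 297 without RAG1x3164 and 304 without TCRaCox3156. Pathway genes called there were 9 with DESeq2, 3 with the 6 libraries alone and 4 to 7 without each mouse, in place of 5. The cause was not tested. In the study's 2 comparisons the totals of called genes stayed within 1.5 times under every alternative run. Counts by direction did so too in the housing comparison but not in the Rag1-/- comparison, where library size only gave 713 higher and 3218 lower in place of 1494 and 1820, and for pathway genes 5 and 18 in place of 9 and 11, and DESeq2 14 pathway genes higher. Without scaling to length, 5, 5 and 2 of the 9 members kept their place in the order of levels in WT, Rag1-/- and co-housed mice. At this depth S100a8, S100a9, Hp and Il6 rest on few reads. No paired analysis was possible because the labels pair no mice.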

Other observations

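Genes next to the members in the genome were taken by start position among those tested. Nearest to Tat on chromosome 8 among the genes tested were Marveld3 and Chst4, a sulfotransferase gene whose start is 38639 bases away. Chst4 was higher by 3.51 ± 0.13 in Rag1-/- and 3.16 ± 0.13 in co-housed mice (log2, SE), and Marveld3 by 0.81 ± 0.07 and 0.86 ± 0.07. Both neighbours of Lrg1 were also called higher in both comparisons, the lipid droplet gene Plin5 by 2.08 ± 0.45 and 1.68 ± 0.46 and the semaphorin gene Sema6b by 1.84 ± 0.20 and 0.88 ± 0.19 (log2, SE). S100a6, the tested gene nearest to the S100 pair on 1 side, was lower by -0.49 ± 0.08 and -0.77 ± 0.08 (log2, SE). On the other side of the pair, 4930529C04Rik was called in neither comparison. The neighbours of Serpina10 were lower in the housing comparison, Ppp4r4 by -1.62 ± 0.32 and Serpina1f by -2.56 ± 0.44, and were not called in Rag1-/- mice, at -0.82 ± 0.32 and -1.39 ± 0.39 (log2, SE). Next to Serpina3n, its paralog Serpina3i was higher by 3.95 ± 0.81 and Dicer1 lower by -0.27 ± 0.07 in the housing comparison (log2, SE), and neither was called in Rag1-/- mice. Of the neighbours of Lcn2, 1110008P14Rik was higher in the housing comparison by 0.74 ± 0.12 (log2, SE) and Ptges2 was called in neither. The neighbours of Lbp (D630003M21Rik and 9430008C03Rik) and of Hp (Txnl4b and Dhodh) were called in neither. Hp and Tat start 415308 bases apart with 9 genes between them, and Serpina10 and Serpina3n 790033 bases apart with 22 genes between them. Of the 10 tested genes between the 2 serpins, 2 were called lower in Rag1-/- mice, Serpina1b and Serpina1e, and both were also called lower in co-housed mice, where 3 of the 10 were lower and 3 higher. Of the 7 tested genes between Hp and Tat, 2 were called higher in Rag1-/- mice, Ap1g1 and Marveld3, and 2 higher and 2 lower in co-housed mice. Beside these counts stand 20.9% and 38.8% of all genes called.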
